A study of Mus musculus with 54 samples.

Results

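Mouse extraembryonic endoderm cells whose Gata6 gene carries an FKBP tag (the Gata6-FKBP line) were set against the parental cXEN cells, before any tagged protein was degraded. The comparison takes the RNA-seq libraries whose titles name Gata6-FKBP cells at 0 h (2 libraries) and the parental XEN cells (2 libraries), which is 4 of the 54 samples in the series. The series holds 40 RNA libraries and 14 chromatin samples, and it follows what happens to XEN cells when GATA6 or SOX17 is removed with the degrader dTAGV1, which recruits an FKBP-tagged protein to the VHL ubiquitin ligase. Every degradation time course starts from a tagged line at 0 h, so the difference between a tagged line and the parental cells is the starting point of those series.

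The Gata6-FKBP libraries are labelled with the genotype cXEN with Gata6-FKBP, DMSO (the vehicle of the degrader) and 0 h. For the parental libraries the treatment and the time are both labelled NA, so vehicle and line differ together and cannot be told apart. Both groups are labelled as the cell line cXEN and the cell type extraembryonic endoderm stem cells, and the growth protocol gives 1 medium for the line, Advanced RPMI with 15% fetal bovine serum. A second tagged line, Sox17-FKBP at 0 h in DMSO (2 libraries), served as a further reference. Where ranges over the 20 other libraries of Gata6-FKBP genotype are given, these are 10 of cells treated with dTAGV1 for 6 to 96 h, 4 of Gata6-FKBP cells that are also FoxA2-/-, with and without dTAGV1, and 6 titled as XEN cells in N2B27 medium. The labels give those 6 the Gata6-FKBP genotype, and 4 of them received 25 ng/ml BMP4, a growth factor, for 24 or 72 h. The labels do not say whether either tagged line is 1 clone or whether the replicates were separate cultures. The spread between replicates may therefore be technical, and p-values rest on that spread pooled over the 20 groups of all 40 RNA libraries.

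XEN cells are self-renewing cells of the primitive endoderm lineage, the layer of the blastocyst that later forms the yolk sac. Its descendants are the visceral endoderm, an absorptive epithelium that secretes apolipoproteins and transthyretin, and the parietal endoderm, migratory cells that lay down a thick basement membrane of laminin and type IV collagen. GATA6 is the zinc finger factor that specifies primitive endoderm, and SOX17, GATA4 and FOXA2 are further transcription factors of the same lineage.

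The gene counts came to 17296302 and 16221873 reads in the Gata6-FKBP libraries, 28276759 and 25930446 in the parental ones and 28314623 and 41630196 in the Sox17-FKBP ones. Levels are given as CPM, read counts scaled to a common library size with TMM factors, in the order replicate 1 and replicate 2. Replicates were not copies of each other: their counts differed by 12.8 times the sampling noise in the Gata6-FKBP pair and 15.2 times in the parental pair (chi-square per degree of freedom), against 3.02 times in the Sox17-FKBP pair. Of 14625 genes tested, 6993 (47.8%) differed between the Gata6-FKBP line and the parental cells at an adjusted p under 0.05 in edgeR's quasi-likelihood test. They were split into 3419 higher in the line (23.4%) and 3574 lower (24.4%), and these shares are the background for each count against the parental cells that follows. Differences of at least 1 log2 unit were held by 905 higher genes (6.19%) and 1602 lower genes (11%), and differences of at least 3 log2 units by 167 higher genes (1.14%) and 719 lower genes (4.92%). The median difference of all genes was 0.01 log2 units. For counts against the Sox17-FKBP line, the background was 27.4% of genes higher and 20.6% lower.

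**Figure D1:**
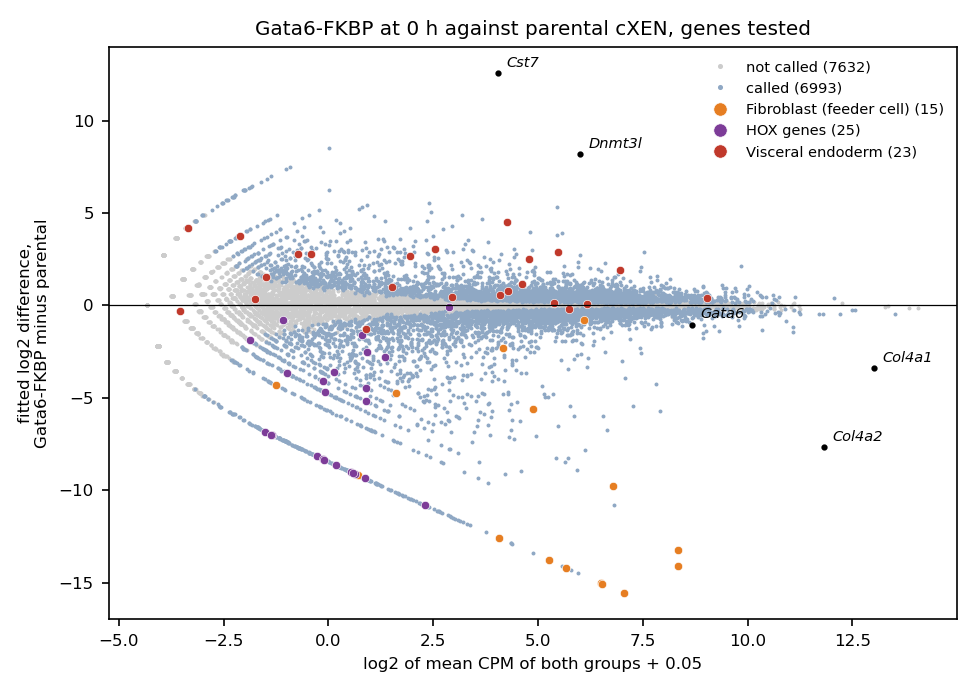
Each point is 1 of the tested genes, with its mean level over both groups (log2 of CPM plus 0.05) on the x axis and its fitted log2 difference, Gata6-FKBP 0 h minus parental cXEN, on the y axis. More called genes lie below -3 (719) than above 3 (167). Of the coloured lists, fibroblast and HOX genes (orange and purple) lie mostly along or near the lower edge, where the line has few or no reads, and visceral endoderm genes (red) lie mostly above 0.

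Both groups expressed the factors that define the labelled cell type, Gata6, Gata4, Sox17 and Foxa2, as given with their values below. The parental libraries also held transcripts that mark fibroblasts, and these go along with many of the genes that were lower in the line. Of 20 genes on a fibroblast list, 15 passed the filter on low counts and 15 of 15 were lower in the Gata6-FKBP line, 13 of them by at least 3 log2 units. The filter kept a gene that was read in any group, so members read only in the parental pair could not be called higher. The count is therefore a description. Fibroblast markers were not all present in the parental libraries. The members that did not pass, Thy1, Lum, Loxl1, Fap and Mgp, had 2, 6, 8, 11 and 12 reads over both parental libraries. Postn, which passed, had 36 reads there, against 32676 for Col1a1. The summed level of the list was 56.2 to 58.4 CPM in the Gata6-FKBP libraries and 2176 to 2900 CPM in the parental ones. It was 23.5 to 115 CPM in the 20 other libraries of Gata6-FKBP genotype and 47.7 to 607 CPM in the 16 Sox17-FKBP libraries. In the line 7 of the 15 had no read at all, among them Prrx1, a mesenchymal homeobox factor (0 and 0 against 30.1 and 36.9 CPM), and Dcn, the collagen-binding proteoglycan decorin (0 and 0 against 3.06 and 3.28 CPM). The parental libraries differed from each other in the same genes, since 14 of the 15 were higher in parental replicate 2, by a median of 0.42 log2 units. Among the 719 genes lower by at least 3 log2 units, 77.5% were higher in parental replicate 2, against 53.8% of all genes. The part of these transcripts in the results was not tested, and in bulk RNA fewer cells of a type and less RNA per cell cannot be told apart.

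Gata6, the tagged gene (chr18:11052510-11085636, mm10), was read at 271 and 267 CPM in the Gata6-FKBP line and at 557 and 547 CPM in the parental cells. Both libraries of the line lay below both parental ones, and the fitted difference was -1.04 ± 0.06 log2 units (SE, adjusted p = 8.49e-14). Gata6 stood at 336 and 344 CPM in the Sox17-FKBP line, where the gene is not labelled as tagged, and the Gata6-FKBP line lay below that as well (-0.34 ± 0.06 log2 units, adjusted p = 4.12e-05). Across the 20 other libraries of Gata6-FKBP genotype, which include degrader-treated cells, Gata6 ranged from 122 to 344 CPM with a median of 279, also below both parental values. Counts over the whole gene do not separate tagged from untagged transcripts.

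Its partner factors did not follow Gata6. Sox17 was read at 499 and 550 CPM in the line and 390 and 380 CPM in the parental cells, with no overlap, a rise of 0.45 ± 0.07 log2 units (adjusted p = 1.36e-05). Foxa2 stood at 117 and 130 CPM against 99.0 and 112 CPM, a difference of 0.23 ± 0.07 log2 units (adjusted p = 0.00756) that was no longer called without replicate 2 of the line (adjusted p = 0.17) or without replicate 1 of the parental cells (adjusted p = 0.16). It kept its size but was not called with no filter on low counts (0.22, adjusted p = 0.068) or in a fit to the compared libraries alone (0.23, adjusted p = 0.10). Gata4 did not pass the test, at 784 and 871 CPM against 885 and 872 CPM (-0.09 ± 0.07, adjusted p = 0.32). Over a list of 25 tested GATA, SOX, FOXA and HNF regulators, 8 were higher, 7 lower and 10 not called, with a median of -0.04. Sall1, a zinc finger factor of XEN cells, was among the higher ones (324 and 336 against 122 and 131 CPM, 1.38 ± 0.08). Sox7, an endodermal SOX factor, was among the lower ones (190 and 196 against 421 and 357 CPM, -1.01 ± 0.10). The wider primitive endoderm list was as mixed, with 7 of 20 genes higher, 6 lower and a median of -0.03, and its receptor Pdgfra was higher in the line (1090 and 1078 against 581 and 554 CPM, 0.93 ± 0.09).

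**Figure D2:**
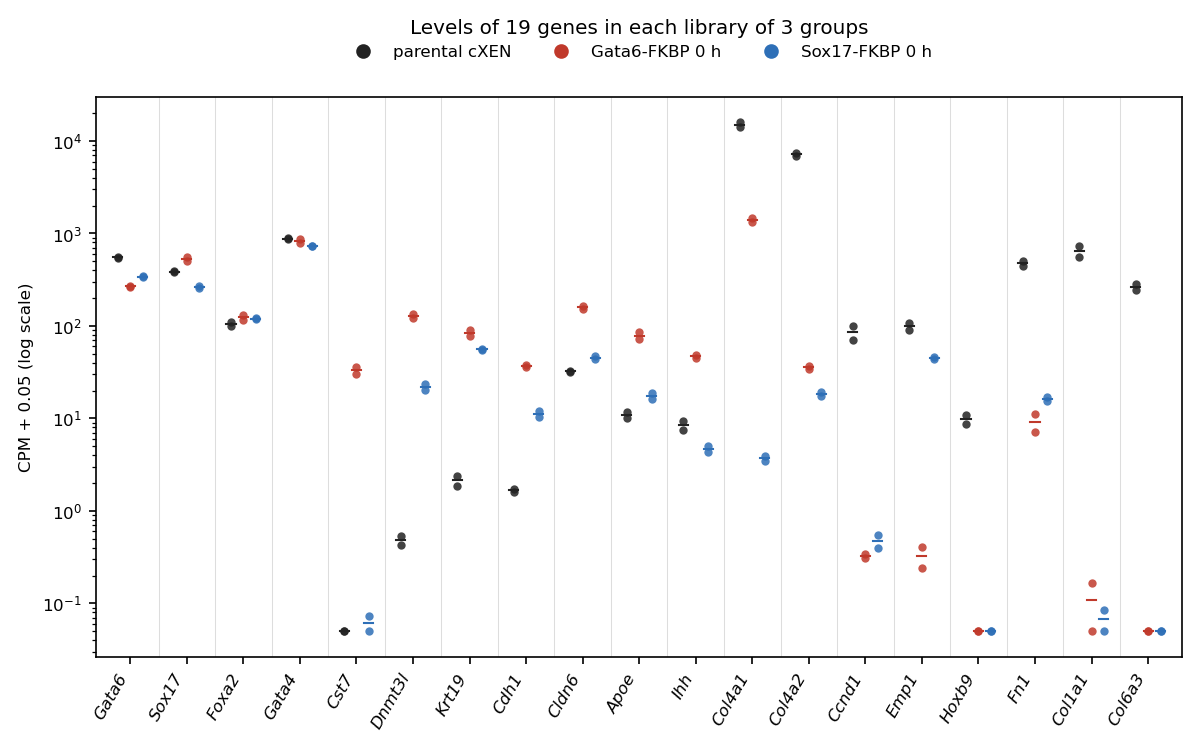
Level of 19 genes in each library (CPM plus 0.05, on a log axis, with a bar at each group's mean) for Gata6-FKBP 0 h, parental cXEN and Sox17-FKBP 0 h, with 1 point per library. The 2 libraries of a group lie close together beside the distance between groups for Col4a2, Col6a3, Cst7 and Dnmt3l, while the Gata4 points lie close together in the 3 groups.

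The chains of type IV collagen, the network-forming collagen of basement membranes, showed large contrasts that were unequal between chains. Col4a1 (chr8:11198423-11312889) and Col4a2 (chr8:11312805-11449287) encode the chains that assemble together in a fixed ratio, and they lie head to head on opposite strands with overlapping starts. Their RefSeq promoter windows (GRCm38.p6) span 250 bases before to 50 after an annotated start. They are shown because the genes share a start region while their levels differed by unequal amounts between these cells. The Col4a1 window is not placed on the outer end of the gene span given above, so the shared stretch depends on the start used. The windows share 78 bases, chr8:11312777-11312854, which are in capitals in both and are the reverse complement of each other.
Col4a1, chr8:11312777-11313076, minus strand: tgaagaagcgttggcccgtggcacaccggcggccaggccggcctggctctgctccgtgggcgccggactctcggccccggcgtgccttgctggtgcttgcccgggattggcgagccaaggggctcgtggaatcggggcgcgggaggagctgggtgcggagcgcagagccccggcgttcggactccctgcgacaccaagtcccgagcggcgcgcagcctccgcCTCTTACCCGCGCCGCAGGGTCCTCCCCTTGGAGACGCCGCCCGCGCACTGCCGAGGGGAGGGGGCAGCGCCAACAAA
Col4a2, chr8:11312555-11312854, plus strand: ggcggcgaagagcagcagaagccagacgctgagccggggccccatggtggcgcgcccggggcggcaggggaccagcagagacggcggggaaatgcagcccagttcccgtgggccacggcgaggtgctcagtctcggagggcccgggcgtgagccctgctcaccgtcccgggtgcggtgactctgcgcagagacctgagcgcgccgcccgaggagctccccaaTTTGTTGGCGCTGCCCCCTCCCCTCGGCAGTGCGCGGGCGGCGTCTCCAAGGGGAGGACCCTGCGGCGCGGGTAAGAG
The dinucleotide CG occurs 37 times in the Col4a1 window and 33 times in the Col4a2 window, against a median of 7 over 32851 promoter windows of the same length. As many or more were found in 5.58% of windows for the Col4a1 count and in 8.56% for the Col4a2 count.

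Col4a1 was read at 1345 and 1488 CPM in the Gata6-FKBP line and at 15879 and 14145 CPM in the parental cells. It was 10.6-fold lower in the line (-3.41 ± 0.11 log2 units, adjusted p = 8.64e-20). Col4a2 was read at 33.8 and 37.2 CPM against 7506 and 6925 CPM, 203-fold lower (-7.67 ± 0.09, adjusted p = 1.99e-30). The groups lay far apart for both genes, and the difference was larger for Col4a2 than for Col4a1. The Sox17-FKBP line had Col4a1 at 3.44 and 3.92 CPM and Col4a2 at 17.6 and 19.1 CPM. Col4a1 was 385-fold higher in the Gata6-FKBP line than in the Sox17-FKBP line (8.58 ± 0.14, adjusted p = 8.07e-26), while Col4a2 differed between the tagged lines by 0.95 ± 0.07 log2 units (adjusted p = 1.18e-11). Where the labels state no strand setting, reads from the overlap of the genes cannot be assigned to either.

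These levels held in libraries that took no part in the comparison. The 20 other Gata6-FKBP libraries lay between 534 and 1625 CPM for Col4a1 (median 1499) and between 23.9 and 47.3 CPM for Col4a2 (median 35.7), all far below the parental cells. The 16 Sox17-FKBP libraries, the 0 h pair included, lay between 0.904 and 5.07 CPM for Col4a1 and between 14.7 and 20.3 CPM for Col4a2. The genes on either side did not share the loss: Irs2, an insulin receptor adaptor, was at 160 and 176 CPM against 150 and 144 CPM (0.19 ± 0.07, adjusted p = 0.0339). Rab20, a small GTPase of endosomes, was higher in the line at 28.9 and 32.7 CPM against 9.73 and 11.7 CPM (1.53 ± 0.12, adjusted p = 5.65e-11).

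**Figure D3:**
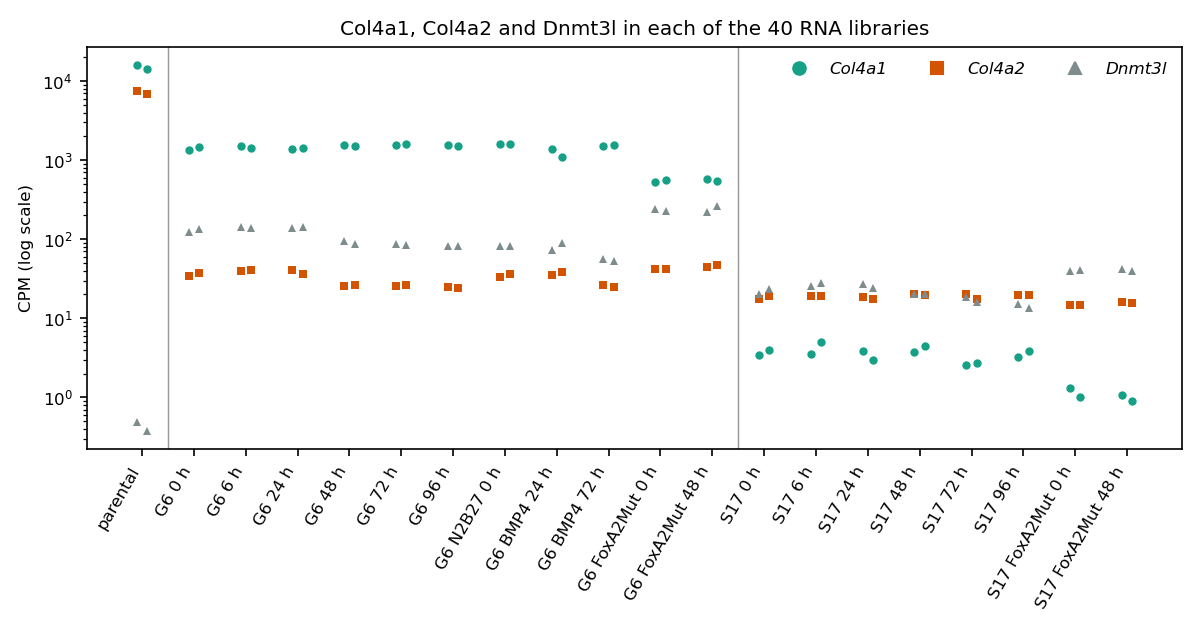
Levels of Col4a1, Col4a2 and Dnmt3l (CPM on a log axis) in each of the 40 RNA libraries, grouped as parental, Gata6-FKBP and Sox17-FKBP genotypes. Col4a1 forms 3 separate levels, highest in the parental cells, at 534 to 1625 CPM in the Gata6-FKBP genotype beside its 0 h pair and at most at 5.07 CPM in the Sox17-FKBP genotype.

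The rest of the basement membrane was changed in parts. Of 22 tested genes on that list 3 were higher, 13 lower and 6 not called, with a median of -0.55. The minor chains Col4a5 and Col4a6, which lie next to each other on the X chromosome, had no read in the line against 8.24 and 8.58 CPM and 4.85 and 7.84 CPM in the parental cells. They were at least 91.4-fold and at least 68.9-fold lower, against a floor of 3 reads over both libraries of the line. The laminin chains that make up laminin-111 did not pass the test: Lama1 was at 15976 and 17039 CPM against 19272 and 16695 CPM (-0.12 ± 0.11, adjusted p = 0.39), with Lamb1 at -0.04 ± 0.07 (adjusted p = 0.65) and Lamc1 at -0.13 ± 0.10 (adjusted p = 0.30). Nid1, the nidogen that links laminin to type IV collagen, was lower (1116 and 1201 against 3391 and 2894 CPM, -1.44 ± 0.12), as was Sparc, a collagen-binding matrix protein (9476 and 10290 against 13431 and 13871 CPM, -0.47 ± 0.06). Agrn, the heparan sulfate proteoglycan agrin, was higher (251 and 289 against 75.1 and 72.4 CPM, 1.87 ± 0.07), and so was Lama5, a laminin chain of mature epithelia (59.4 and 65.2 against 26.5 and 19 CPM, 1.45 ± 0.14). Fn1, fibronectin, was 52.1-fold lower at 7.16 and 11 CPM against 440 and 509 CPM.

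The 12 largest rises by the naming rule were Cst7, Dnmt3l, Hrk, Krt19, Cend1, Pak6, Sptb, Cdh1, Atp8a1, Afap1l2, Plch1 and Rhox6. Hrk, an activator of apoptosis, was read at 9.63 and 10.9 against 0.186 and 0.249 CPM (5.53 ± 0.28), and Cend1, a regulator of neuronal cell cycle exit, at 9.86 and 11.3 against 0.298 and 0.332 CPM (5.05 ± 0.26). Pak6, a kinase downstream of small GTPases, was at 22.1 and 26.3 against 1.19 and 0.663 CPM (4.68 ± 0.21), and Atp8a1, a phospholipid flippase, at 16 and 13.1 against 0.783 and 0.663 CPM (4.32 ± 0.23). The naming rule took only genes without overlap between the groups, so the lack of overlap in these 12 was set by the choice. Cst7 encodes cystatin F, an inhibitor of lysosomal cysteine proteases that is best known from immune cells. It was the only gene read above 5 CPM in the line with no read in either parental library, so its promoter window is printed, with CG dinucleotides in capitals (5 of them, a number reached by 62.0% of windows).
Cst7, chr2:150570165-150570464, plus strand: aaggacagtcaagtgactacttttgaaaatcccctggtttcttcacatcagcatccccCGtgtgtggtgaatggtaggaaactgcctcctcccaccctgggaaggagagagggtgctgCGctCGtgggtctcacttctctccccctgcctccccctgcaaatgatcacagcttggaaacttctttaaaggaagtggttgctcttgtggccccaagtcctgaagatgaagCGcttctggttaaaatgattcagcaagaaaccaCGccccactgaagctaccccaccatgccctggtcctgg
Cst7 (chr2:150570415-150578944) was read at 30.4 and 35.6 CPM in the line and not at all in the parental cells, at least 559.7-fold higher against 3 reads over the parental pair (adjusted p = 1.69e-17). It stayed on in every other Gata6-FKBP library, at 10.5 to 56.1 CPM, and reached no more than 0.131 CPM in the 16 Sox17-FKBP libraries. Apmap, the next gene along, differed little (78.1 and 78.1 against 67.8 and 63.4 CPM, 0.25 ± 0.07, adjusted p = 0.00456).

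Dnmt3l (chr10:78042287-78063622), the catalytically inactive partner of the de novo DNA methyltransferases, was read at 123 and 135 CPM in the line against 0.485 and 0.373 CPM in the parental cells. That is 300.1-fold higher, or 8.20 ± 0.16 log2 units (adjusted p = 2.87e-24), with the groups far apart. The Sox17-FKBP line lay between them at 20.5 and 23.4 CPM. In the other libraries of the Gata6-FKBP genotype Dnmt3l ranged from 53.2 to 264 CPM, and in the Sox17-FKBP genotype from 13.7 to 42.4 CPM. Icosl, the next gene along and a ligand of the T cell costimulator ICOS, was higher too (7.75 and 10.2 against 1.31 and 1.24 CPM, 2.81 ± 0.16), while Aire, whose annotated end overlaps Dnmt3l, had no read in these 4 libraries. Of 12 tested genes for writing and erasing DNA methylation, 7 were higher and 1 lower, with a median of 0.28. Uhrf1, which brings the maintenance methyltransferase to replicated DNA, was higher at 311 and 354 against 213 and 239 CPM (0.56 ± 0.06), and Dnmt3a, a de novo methyltransferase, at 30.2 and 31.9 against 16 and 18.7 CPM (0.84 ± 0.10). Tet2, which oxidises methylcytosine, was the lower one (0.470 and 0.193 against 2.69 and 2.28 CPM, -2.86 ± 0.34). On a list of germline genes kept silent by DNA methylation, 6 of 19 were higher and 2 lower, and those of the Rhox and Xlr families share near-identical copies, so their counts are uncertain. Rhox6 (49.5 and 55.7 against 2.61 and 4.15 CPM, 3.97 ± 0.16) is of that kind.

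Epithelial genes were among the large rises. Krt19, a keratin of simple epithelia, was read at 78.6 and 91.3 CPM against 2.35 and 1.82 CPM, 40.7-fold higher (5.34 ± 0.16, adjusted p = 4.40e-20). Cdh1, the adherens junction protein E-cadherin, was read at 36.0 and 37.8 CPM against 1.57 and 1.66 CPM, 22.9-fold higher (4.51 ± 0.13, adjusted p = 1.46e-20). Both were well apart between the groups, and the Sox17-FKBP line was at 56.5 and 55.3 CPM for Krt19 and 12 and 10.4 CPM for Cdh1, above the parental cells as well. Of 21 tested epithelial genes 13 were higher in the Gata6-FKBP line and 2 lower, with a median of 0.93, or 1.24 with genes lacking reads set at their bound. Against the Sox17-FKBP line, with which the comparison shares its Gata6-FKBP libraries, 10 of the 21 were higher and 5 lower. Cldn6, a claudin of early epithelia, was 4.95-fold higher than in the parental cells (154 and 166 against 32.0 and 32.7 CPM). Ocln, the tight junction protein occludin, was 3.90-fold higher (12.4 and 11.9 against 2.95 and 3.28 CPM), and Spint2, an inhibitor of membrane serine proteases, 4.39-fold higher (77.1 and 82.9 against 17 and 19.4 CPM). The 2 lower genes were Grhl2, a regulator of epithelial junction genes (0.704 and 0.835 against 2.01 and 1.70 CPM, -1.27 ± 0.30), and St14, the membrane protease matriptase (24.5 and 28.5 against 42.6 and 38.5 CPM, -0.61 ± 0.12).

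Visceral endoderm genes were also mostly higher in the line. Of 23 tested, 15 were higher in the line, 1 was lower and 7 were not called, with a median of 1.14, and against the Sox17-FKBP line 13 were higher and 5 lower. Apoe, an apolipoprotein, was read at 72.2 and 85 CPM against 9.99 and 11.6 CPM (2.87 ± 0.12, adjusted p = 6.72e-17). Ihh, the hedgehog ligand made by visceral endoderm, was read at 45.1 and 49.1 CPM against 7.53 and 9.33 CPM (2.48 ± 0.13, adjusted p = 5.42e-15). Neither gene overlapped between the groups. The endocytic receptor genes Lrp2 (196 and 200.2 against 59.3 and 44.4 CPM, 1.93 ± 0.22) and Amn (5.81 and 7.32 against 1.27 and 0.788 CPM, 2.65 ± 0.30) were both higher. Hnf4a, a nuclear receptor of this layer, was 2.21-fold higher (31.0 and 37.0 against 14.6 and 16.2 CPM), and Ttr, transthyretin, was 1.71-fold higher (21.8 and 27.4 against 13.9 and 14.8 CPM). Afp, alpha-fetoprotein, was the gene that was lower, at 1.17 and 0.899 against 2.69 and 2.45 CPM (-1.30 ± 0.23). Parietal endoderm genes were divided, with 5 of 19 higher and 8 lower and a median of -0.14. In the anterior visceral endoderm list 4 of 8 genes were higher and 1 lower, with Hhex, a homeobox factor of that region, at 16.7 and 16.7 against 3.32 and 2.65 CPM (2.48 ± 0.19).

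The 12 largest falls were Col6a3, Col3a1, Col6a2, Il1rl1, Cav1, S100a4, Col1a2, Ptn, Col5a2, Gas1, Col1a1 and Grem1. They comprise 6 collagen genes, 7 are on the fibroblast list, and 11 of the 12 were higher in parental replicate 2 than in replicate 1. In 10 of the 12 the Gata6-FKBP line had no read, and in 7 the Sox17-FKBP line had none either. The window of Col6a3, a chain of the microfibril collagen VI and the first of these by fitted difference, is printed as a contrast to the Col4 pair, with its 3 CG dinucleotides in capitals (76.7% of windows hold as many or more).
Col6a3, chr1:90843922-90844221, minus strand: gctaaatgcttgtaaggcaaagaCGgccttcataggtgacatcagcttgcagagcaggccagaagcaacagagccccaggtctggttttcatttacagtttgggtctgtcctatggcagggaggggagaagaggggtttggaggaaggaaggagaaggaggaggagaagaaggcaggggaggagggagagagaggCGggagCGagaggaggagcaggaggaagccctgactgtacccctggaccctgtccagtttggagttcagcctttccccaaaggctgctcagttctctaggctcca
Col6a3 was read at 242 and 284 CPM in the parental cells and not at all in the line, at least 2859-fold lower (adjusted p = 7.23e-17). Col3a1, a fibrillar collagen of loose connective tissue, was at 151 and 217 CPM and Il1rl1, the interleukin 33 receptor, at 111 and 136 CPM in the parental cells, both without a read in the line. DESeq2 fitted falls of similar size (-14.03 for Col3a1 and -13.45 for Il1rl1) that did not pass its test (adjusted p = 0.22 and 0.24). Col1a1, the main chain of collagen I, had 2 reads in the line, all in replicate 1, against 557 and 735 CPM, and the ratio of the levels was 10458 (95% counting interval 2895 to 86361). Cav1, the coat protein of caveolae, was at 104 and 119 CPM and Grem1, a secreted BMP antagonist, at 41.4 and 41.0 CPM in the parental cells, at least 1208-fold and at least 448-fold lower in the line. S100a4, a calcium-binding protein of motile and mesenchymal cells, was at 77.6 and 124 CPM, and Gas1, a membrane protein that binds hedgehog ligands, at 48.9 and 69.0 CPM, at least 1098-fold and at least 640.4-fold lower.

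Genes without any read were common on that side. Of all 14625 genes tested, 493 had no read in the line and 210 had none in the parental pair. The line was also read less deeply, at 17296302 and 16221873 against 28276759 and 25930446 gene reads. Fewer reads leave more genes at 0, and the part of depth in these counts was not tested. Among called genes, 281 were lower with no read in either Gata6-FKBP library, and 54 of these had a mean of at least 5 CPM in the parental cells. No read was found in the Sox17-FKBP pair for 139 of the 281 and 32 of the 54. In the other direction, 37 genes were higher with no read in either parental library and 1 of them, Cst7, had at least 5 CPM. All 23 tested genes for interstitial collagens and their processing were lower (median -4.54, or -4.56 with bounds), the 11 collagen genes among them included, and 15 of the 23 are not on the fibroblast list. Of 16 mesenchymal genes 15 were lower and 1 higher, with a median of -6.11, or -5.34 with bounds, and 14 of the 16 are not on the fibroblast list. As for the fibroblast list, collagen and mesenchymal members read only in the parental pair passed the filter through that pair and could not be called higher. Vim, the intermediate filament protein vimentin, was lower at 697 and 770.0 against 1687 and 2049 CPM (-1.35 ± 0.08), and Twist1, a mesenchymal transcription factor, at 0.352 and 0.0642 against 5.44 and 6.26 CPM (-4.74 ± 0.63).

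**Figure D4:**
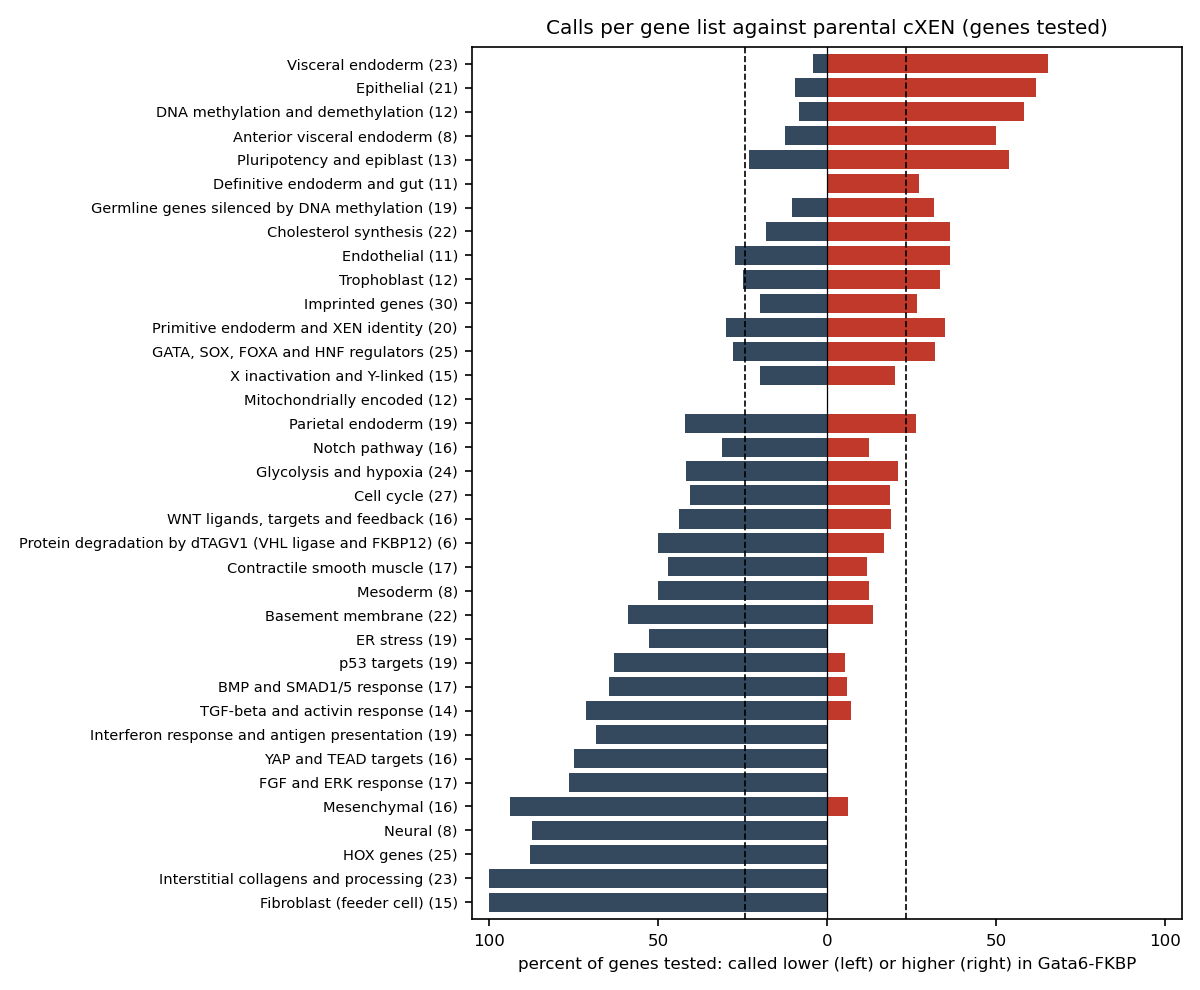
For each gene list, the percentage of its tested genes called higher (right) and lower (left) in Gata6-FKBP 0 h than in parental cXEN, with dashed lines at the shares among all genes tested (23.4% higher and 24.4% lower). The visceral endoderm (15 of 23) and epithelial (13 of 21) lists lead on the higher side, and the interstitial collagen (23 of 23), fibroblast (15 of 15), mesenchymal (15 of 16) and HOX (22 of 25) lists on the lower side. Members read only in the parental pair passed the filter on low counts through that pair and could not be called higher.

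HOX genes, the clustered homeobox genes that give position along the body axis, were lower as a group and were low in runs of neighbours. Of 25 tested, 22 were lower and 3 not called, with a median of -6.83, or -4.08 with bounds, and 13 had no read in the line. Of the lower genes, 12 had no read in either tagged line at 0 h. The filter on low counts kept a gene that was read in any group, so members read only in the parental pair could not be called higher. The counts and the runs below are therefore a description. Hoxb9 was at 8.73 and 10.9 CPM in the parental cells and at 0 and 0 in the line, at least 106.7-fold lower. Reading along the chromosomes, 10 neighbouring tested genes from Hoxb13 to Hoxb2 (chr11:96194316-96354020) were all lower by at least 1 log2 unit, with a median of -8.50. So were 6 genes from Hoxc10 to Hoxc4 (chr15:102966796-103036856, median -4.26) and 5 from Hoxa7 to Hoxa11os (chr6:52215623-52249769, median -7.01). The summed level of the HOX list was 9.16 to 11 CPM in the line and 58.0 to 70.6 CPM in the parental cells, and 18 of the 25 were higher in parental replicate 2. It was 7.01 to 49.8 CPM in the 20 other libraries of Gata6-FKBP genotype and 3.74 to 22.01 CPM in the 16 Sox17-FKBP libraries. In the Sox17-FKBP pair at 0 h, 13 of the 25 had no read. Against that pair, 19 of the 25 were not called, 5 were higher in the Gata6-FKBP line and 1 was lower. HOX clusters hold antisense transcripts, and without a stated strand setting reads of these cannot be told apart from those of the genes.

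Signalling targets were lower more often than higher. Of 17 genes of the FGF and ERK response 13 were lower and 4 not called (median -0.72), among them Fosl1, an AP-1 subunit (1.35 and 1.22 against 16.4 and 20.2 CPM, -3.82 ± 0.29), and Dusp5, a phosphatase of nuclear ERK (-1.42 ± 0.14). Of 16 YAP and TEAD targets 12 were lower and 4 not called (median -0.40), led by Axl, a receptor tyrosine kinase (1.06 and 2.50 against 97.9 and 130 CPM, -6.02 ± 0.21), and Ccn2, a matricellular protein (345 and 364 against 985 and 866 CPM, -1.38 ± 0.07). The TGF-beta and activin list had 10 of 14 lower and 1 higher (median -1.55), the BMP list 11 of 17 lower and 1 higher (median -1.28), and the WNT list 7 of 16 lower and 3 higher. Axin2, a feedback inhibitor of WNT signalling, was at 2.35 and 2.12 against 8.35 and 10.8 CPM (-2.09 ± 0.24). Notch genes showed 2 of 16 higher and 5 lower. Of 19 interferon and antigen presentation genes 13 were lower and 6 not called (median -1.36), with B2m, the light chain of MHC class I, at 43.2 and 41.4 against 136 and 153 CPM (-1.77 ± 0.09).

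Growth and stress genes were less uniform. Ccnd1, cyclin D1, was read at 0.294 and 0.257 CPM in the line against 70.5 and 100.1 CPM in the parental cells, 309.9-fold lower (-8.24 ± 0.32, adjusted p = 6.44e-17). The Sox17-FKBP line was at 0.351 and 0.502 CPM, from which the Gata6-FKBP line did not differ past the threshold (-0.66 ± 0.63, adjusted p = 0.42), and the other Gata6-FKBP libraries ranged from 0 to 26.5 CPM with a median of 0.122. The mitotic cyclin Ccnb1 was higher instead (530 and 555 against 282 and 307 CPM, 0.88 ± 0.05), and over 27 cell cycle genes 5 were higher and 11 lower. Of 19 p53 targets 12 were lower and 1 higher (median -0.44), with the death receptor Tnfrsf10b at 2.00 and 1.99 against 36.5 and 32.9 CPM (-4.12 ± 0.20). Of 19 ER stress genes 10 were lower and 9 not called, led by Chac1, which degrades glutathione (7.10 and 8.16 against 38.5 and 27.1 CPM, -2.11 ± 0.19). Cholesterol synthesis had 8 of 22 higher and 4 lower, glycolysis and hypoxia 5 of 24 higher and 10 lower and the 12 tested mitochondrially encoded genes did not pass the test, with unadjusted p from 0.0737 for mt-Atp6 to 0.986 for mt-Nd5.

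Pou5f1, the pluripotency factor OCT4, was higher at 6.87 and 8.28 against 0.895 and 0.415 CPM (3.50 ± 0.27), and the pluripotency list had 7 of 13 higher and 3 lower. The definitive endoderm and gut list had 3 of 11 higher and 8 not called, trophoblast 4 of 12 higher and 3 lower, mesoderm 1 of 8 higher and 4 lower, and neural 7 of 8 lower and 1 not called. Endothelial genes had 4 of 11 higher and 3 lower, with Cdh5, VE-cadherin, which XEN cells also express, at 329 and 341 against 146 and 165 CPM (1.10 ± 0.07). Contractile smooth muscle genes had 2 of 17 higher and 8 lower: Acta2, smooth muscle actin, was at 9.33 and 8.67 against 90.4 and 103 CPM (-3.42 ± 0.13), and Tagln, transgelin, at 22.2 and 23.7 against 7.46 and 5.14 CPM (1.86 ± 0.14). Among 30 imprinted genes 8 were higher and 6 lower, including H19, a maternally expressed RNA (4.23 and 3.79 against 0.112 and 0.166 CPM, 4.81 ± 0.61), and Ndn, a paternally expressed growth suppressor (8.10 and 8.28 against 32.2 and 46.1 CPM, -2.25 ± 0.16). Sfmbt2, a paternally expressed Polycomb factor of extraembryonic tissue, was at 1607 and 1378 against 378 and 304 CPM (2.13 ± 0.17). Of 15 X inactivation and Y-linked genes 3 were higher and 3 lower, and Xist, the RNA of X inactivation, was at 0.176 and 0.450 CPM in the line, 33.9 and 12.9 CPM in the parental cells and 7.92 and 6.69 CPM in the Sox17-FKBP line. Tsix runs antisense to Xist and their reads cannot be told apart here. The machinery of dTAGV1 had 1 of 6 genes higher and 3 lower, with Fkbp1a, the endogenous FKBP12, at 453 and 482 against 622 and 658 CPM (-0.45 ± 0.09).

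The naming rule also picked genes that lay on 1 side of both references, comparisons that share the Gata6-FKBP libraries. Above both were Cst7, Afap1l2, Pak6, Tmem88, Tmem63c and Gpc3. Tmem88, a membrane protein that restrains WNT signalling, was read at 9.51 and 11.5 CPM in the line, 0.820 and 0.705 CPM in the parental cells and 0.421 and 0.167 CPM in the Sox17-FKBP line. Gpc3, a cell surface heparan sulfate proteoglycan, was at 18.6 and 18.1 CPM, 1.38 and 1.78 CPM, and 1.37 and 1.20 CPM in the same order. Below both were Ptgs2, Emp1, Slit3, Tbx18 and Tpm2. Emp1, an epithelial membrane protein, was at 0.352 and 0.193 CPM in the line, 91.1 and 108 CPM in the parental cells and 46.3 and 44.0 CPM in the Sox17-FKBP line, -8.46 ± 0.24 and -7.33 ± 0.25 log2 units. Tpm2, a muscle tropomyosin, was at 0.998 and 0.771 CPM, 21.4 and 28.9 CPM, and 30.4 and 31.9 CPM in the same order. Both were low in the Gata6-FKBP line and well read in both references, unlike Col6a3, which had no read in either tagged line at 0 h. Over all genes, the contrast with the Sox17-FKBP line was of the same breadth as that with the parental cells, with 7020 of 14625 genes called (48%), 4008 higher (27.4%) and 3012 lower (20.6%). That excess of higher genes depended on the scaling, with 3526 higher and 3348 lower under median-of-ratios scaling and 3032 and 3133 in a fit to the compared libraries alone. The contrast held differences of at least 1 log2 unit in 1231 higher (8.42%) and 1219 lower genes (8.34%). At 3 log2 units it held 298 higher genes (2.04%) and 327 lower genes (2.24%), where the contrast with the parental cells held 167 and 719.

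The 886 genes that differed from the parental cells by at least 3 log2 units were followed in the remaining libraries, by asking in each whether the level was nearer, on the log2 scale, to the mean of the line at 0 h or to the parental mean. The 0 h and parental means that define nearness also chose these genes, and the genes are not independent, so the shares are a description. In the 20 other libraries of Gata6-FKBP genotype, 85.9% of the gene and library values were nearer the line, and 386 genes (43.6%) were nearer it in all 20. In the 16 Sox17-FKBP libraries 70.5% of values were, and 368 genes (41.5%) in all 16. By direction, of the 167 higher genes 65 (38.9%) stayed nearer the line in all other Gata6-FKBP libraries and 28 (16.8%) in all Sox17-FKBP libraries, with 87.8% and 54.0% of values. Of the 719 lower genes the counts were 321 (44.6%) and 340 (47.3%), with 85.5% and 74.4% of values. The FoxA2-/- libraries stood apart from the rest of the Gata6-FKBP genotype here. Lower genes nearer the line in both replicates numbered 432 and 416 of 719 in the FoxA2-/- groups, 590 to 669 in the 8 other Gata6-FKBP groups beside the 0 h pair and 461 to 555 in the 8 Sox17-FKBP groups.

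**Figure D5:**
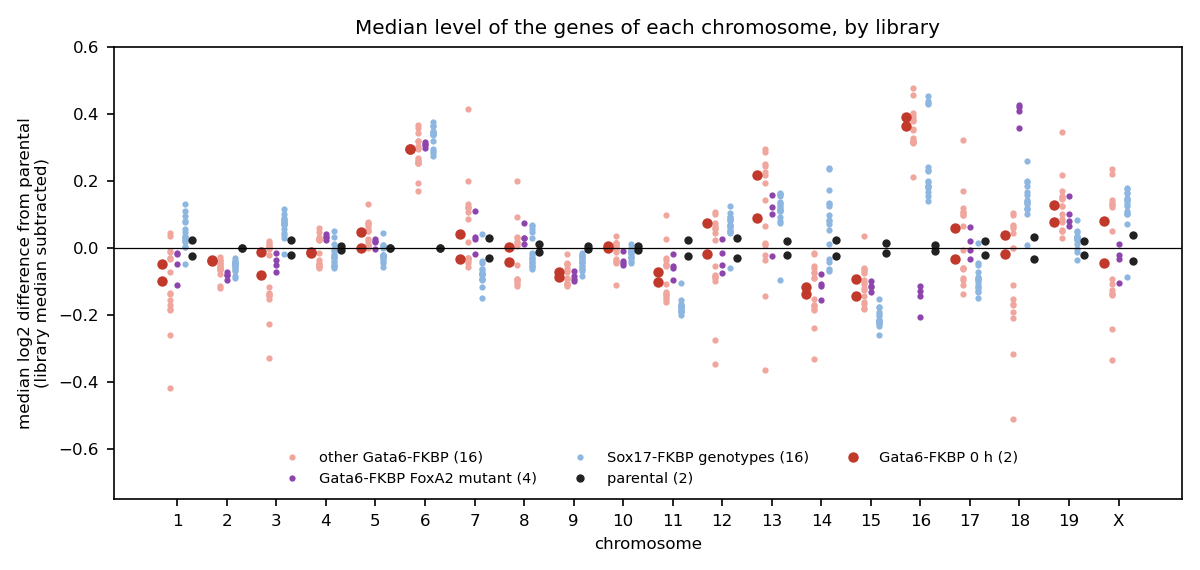
Median log2 difference from the parental mean of the genes of each chromosome (y axis, genes with at least 10 CPM, after subtracting the median of the library), by chromosome (x axis), with 1 point per library. Chromosomes 6 and 16 lie at 0.29 to 0.30 and 0.36 to 0.39 in the Gata6-FKBP libraries at 0 h, while the other chromosomes lie nearer 0 in these libraries.

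Small differences were spread unevenly over the chromosomes. On chromosome 6, 43.1% of 703 tested genes were higher and 16.8% lower, with a median of 0.29 log2 units, and on chromosome 16, 50% of 438 genes were higher and 13.2% lower, with a median of 0.38. The next was chromosome 19 at 0.14. With genes of at least 10 CPM and each library centred on its own median, chromosome 6 (413 genes) lay at 0.29 and 0.30 in the Gata6-FKBP libraries at 0 h, at 0.17 to 0.37 in the other 20 and at 0.27 to 0.38 in the 16 Sox17-FKBP libraries. Chromosome 16 (283 genes) lay at 0.36 and 0.39 in the line at 0 h and at 0.14 to 0.46 in the Sox17-FKBP libraries. It was at 0.21 to 0.48 in the 16 other Gata6-FKBP libraries that are not FoxA2-/-, and at -0.21 to -0.11 in the 4 that are. The rise ran along the length of both chromosomes, with medians of 0.24, 0.32, 0.35 and 0.29 over 4 consecutive stretches of equal gene number on chromosome 6 and of 0.34, 0.34, 0.35 and 0.46 over those on chromosome 16, against -0.03 for the 7807 genes elsewhere. Gene copy number was not measured in these libraries.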

How the data were processed

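RNA was measured in 40 libraries of cXEN cells, and the 14 chromatin samples of the series were not analysed here. The deposited files hold raw read counts per gene, which the authors made with HISAT2 and HTSeq on mm10, per the submitters' processing notes; versions and the strand setting are not given in the sources used here. The 5 summary rows of each file that name no gene were left out of library sizes and tests. Among these rows, reads that fell outside genes made up 3.40 to 5.03% of reads in the 4 libraries compared.

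Counts were fitted with edgeR 4.0.16 in R 4.3.3 (quasi-likelihood test, TMM scaling, default filter on low counts) over 20 group means of all 40 libraries, leaving 20 residual degrees of freedom and 14625 genes. Each group had 2 libraries, which limits the precision, and p-values were adjusted by Benjamini-Hochberg over all genes. The script was tested on simulated data. Fold changes against no reads used a floor of 3 reads over both libraries of a group; intervals and floors cover counting error only. Gene positions and promoter sequences are from RefSeq (GRCm38.p6, the build called mm10). Positions were matched by gene symbol, or by a RefSeq synonym where the symbol was not found, for 14121 tested genes.

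Genes named are Gata6, Sox17, Foxa2 and Gata4; the 12 largest rises and falls with at least 5 CPM in the higher group and no overlap; the 2 members of each of 36 lists with the smallest adjusted p in each direction; and the 6 genes with the largest smaller difference on each side of both references. Other members are given by their values, and a few genes picked by the rule are not reported here. The members and lists were chosen with earlier results of these data known. Alternatives were median-of-ratios scaling, no low-count filter, DESeq2 1.42.0, a fit to the compared libraries alone, a replicate block, each library left out, and the share of reads outside genes as a covariate.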

Additional observations from a re-analysis of the deposited data

Results flagged for a closer look

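For 15 of the named genes both Gata6-FKBP libraries lay on 1 side of the parental cells and both Sox17-FKBP libraries on the other, and the direct contrast between the lines passed edgeR's test in each case. The lines share the parental libraries as reference, and the part of the transcripts on the fibroblast list in these differences was not tested.

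The Sox17-FKBP line was not tested against the parental cells, so the sides are the order of the libraries; for Gpc3, Afap1l2, Ptgs2 and Rhox2a the Sox17-FKBP levels lay close to the parental ones.

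Genes with the Gata6-FKBP libraries above the parental ones and the Sox17-FKBP libraries below were Lfng, a glycosyltransferase of Notch receptors, by 5.60 log2 units between the lines, Tmem88 by 5.24, Afap1l2, an actin-associated adaptor, by 4.8, Gpc3 by 3.85, Esam, a junction protein of endothelium, by 2.66, and Epcam, an epithelial adhesion protein, by 2.20. Epcam was read at 63.6 and 57.9 CPM, 38.3 and 36.6 CPM in the parental cells, and 11.4 and 14.9 CPM in the Sox17-FKBP line. The rise of Lfng over the parental cells (1.24 ± 0.40) was not called without replicate 2 of either pair (adjusted p = 0.16 and 0.060 in edgeR).

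Genes with the Gata6-FKBP libraries below the parental ones and the Sox17-FKBP libraries above were Ptgs2, a prostaglandin synthase, at -7.70 log2 units between the lines, Tbx18, a T-box factor, at -7.25, Acta2 at -5.82, Tpm2, a muscle tropomyosin, at -5.12, Gata3 at -4.46, Wnt4 at -4.02, Tet2 at -3.41, Rhox2a at -2.54 and Tek, an angiopoietin receptor, at -2.12. Ptgs2 and Tbx18 had 3 or fewer reads in the Gata6-FKBP pair, so their fitted values are not bounds. The ratio of the parental to the Gata6-FKBP level was 207.4 for Ptgs2 (95% counting interval 37.0 to 8217) and 92.6 for Tbx18 (31.5 to 450.8). Acta2 was read at 9.33 and 8.67 CPM, 90.4 and 103 CPM in the parental cells, and 501 and 514 CPM in the Sox17-FKBP line. Rhox2a has near-identical copies, and its counts are uncertain.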

How the results depend on the processing

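The count of genes differing from the parental cells was 6993 and stayed within 1.5 times of that under each alternative run: 6933 with median-of-ratios scaling, 6887 with no low-count filter, 6635 in DESeq2, 5198 with the compared libraries alone, 7309 with reads outside genes as a covariate, and 5702 to 6289 with 1 of the 4 libraries left out. Against the Sox17-FKBP line it was 7020, with 5137 to 6494 when 1 library was left out. The compared libraries alone kept the call and direction of 73.9% of the genes called against the parental cells. With reads outside genes as a covariate 75.5% were kept, although the total was larger. Of 221 values of named genes, 24 changed call under at least 1 alternative and none changed direction. Against the parental cells, the calls of Col3a1 and Il1rl1 were lost in DESeq2 and those of Foxa2 and Lfng when a library was left out; the cause was not tested. The share of genes of the line nearer the line in all 20 other Gata6-FKBP libraries was 35.5% for genes at least 2 log2 units apart and 49.8% for at least 4, against 43.6% at 3. Replicate numbers did not pair the libraries (correlation of replicate differences 0.090 with the parental cells and 0.014 with Sox17-FKBP), and with a replicate block 7075 and 7060 genes were called, with no named call changed. With 2 libraries a group and 3 reads as floor, no level under 0.0920 CPM can be told from 0 in the line.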

Other observations

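Hprt, the purine salvage enzyme often used as a reference gene, falls outside the naming rule and was chosen after its values were seen. It had no read in either Gata6-FKBP library against 7.20 and 8.0 CPM in the parental cells, at least 82.6-fold lower (adjusted p = 8.97e-09 in edgeR's test), and 0 and 0.143 CPM in the Sox17-FKBP line. Over the 20 other Gata6-FKBP libraries it reached at most 0.181 CPM. A run of 6 neighbouring protocadherin genes, cell adhesion genes of neurons, was lower in the line by at least 1 log2 unit each (Pcdhac2 to Pcdhb22, chr18:37143678-37521419, median -2.98), and these genes share similar sequence, so their counts are uncertain. The pluripotency gene Pou5f1 ranged over the other Gata6-FKBP libraries from 0.154 to 10.6 CPM with a median of 5.12.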
